A study of Mus musculus with 16 samples.

Results

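Small nucleolar RNAs and the related small Cajal body RNAs were examined in ribosome footprint (RFP) and poly(A)+ mRNA libraries of mouse dorsal root ganglia (DRG) and dorsal lumbar spinal cord (SC). The 166 genes described here were chosen by their reads: they are typed snoRNA (151) or scaRNA (15) and have 100 or more reads summed over the 16 libraries. They come from 1558 snoRNA and scaRNA genes, of which 446 had a read, in a table of 53465 genes. All animals were female C57BL/6J mice aged 8 weeks. The SNI groups underwent spared nerve injury on both sides, a model of neuropathic pain, and the sham groups, which served as controls, were operated on without injury to the sciatic nerve. Tissue was taken 30 days later, and each replicate pooled 10 mice, so variation between single animals is not seen. There were 2 replicates in each of 8 groups, and the RFP and mRNA libraries of a replicate came from the same lysate. RNase I-resistant fragments of 28 to 32 nucleotides were cut for RFP, and alkaline fragments of 30 to 50 nucleotides were cut for mRNA after oligo-dT selection.

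Small nucleolar RNAs guide the chemical modification of ribosomal RNA in the nucleolus. Box C/D RNAs, bound by fibrillarin, guide 2′-O-methylation, and box H/ACA RNAs, bound by dyskerin, guide pseudouridylation. Small Cajal body RNAs guide the same modifications on spliceosomal RNAs. In mammals most of them are cut from introns of longer host genes, and they carry no open reading frame and no poly(A) tail. A footprint-to-mRNA ratio of such an RNA is therefore a ratio of 2 sequenced fractions and not a translational efficiency.

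By name, 38 members were Snord genes (box C/D), 17 were Snora genes (box H/ACA) and 96 other snoRNA genes had neither name, most of them Gm numbers. The latter were classed by their ends, with TGATGA in the first 15 bases together with CTGA in the last 12 bases read as box C/D, and ACA in the last 6 bases read as box H/ACA. This gave 76 box C/D members, 61 box H/ACA members, 17 scaRNAs by type or name and 12 members with no class. The C/D pair was present in 60.5% of the Snord members and 0 of the 17 Snora members, and ACA in 94.1% of the Snora members. ACA also stood in 3 of the 38 Snord members (7.89%). An unnamed box C/D gene without the pair can therefore be classed as box H/ACA or left without a class. Only the transcribed strand was searched. Of 1383 annotated spliceosomal snRNA genes, 0 held the C/D pair and 2.24% held ACA at these places. Median length was 79 bases for box C/D and 133 bases for box H/ACA, where lengths ran from 70 to 246 bases. Of all members, 150 lay in an intron of a host gene on the same strand and 8 had no host. The 12 members that overlap an exon of a longer gene can share reads with it. The study's methods describe the sequencing as not strand-specific, and the strand setting of the counting is not given in the sources used here, so reads of a member and of a gene opposite it may not be told apart.

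The members that carry the results below are shown 5′ to 3′ as DNA letters from GENCODE M21 (GRCm38), with the C and D boxes or the ACA in capitals. Snord49b (chr11:62603079-62603150, plus strand) had most reads of all members, Snord104 (chr11:106500993-106501062, plus) had opposite tissue patterns in the 2 fractions, Snord32a (chr7:45127382-45127464, minus, intron of Rpl13a) had the largest called rise in DRG RFP, and Gm25156 (chr7:59353283-59353361, minus, intron of Snhg14) is one of a near-identical array.
Snord49b: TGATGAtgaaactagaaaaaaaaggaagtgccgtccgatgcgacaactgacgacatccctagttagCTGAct
Snord104: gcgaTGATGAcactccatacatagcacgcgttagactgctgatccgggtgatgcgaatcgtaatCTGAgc
Snord32a: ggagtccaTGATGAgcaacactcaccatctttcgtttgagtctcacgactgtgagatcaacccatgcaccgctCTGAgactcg
Gm25156: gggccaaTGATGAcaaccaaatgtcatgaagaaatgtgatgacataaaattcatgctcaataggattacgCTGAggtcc
The box H/ACA members are Snora31 (chr14:75847905-75848034, plus, intron of Tpt1), Snora35 (chrX:146994381-146994508, plus, intron of the serotonin receptor gene Htr2c), Snora30 (chr7:127527874-127528003, plus, intron of Srcap), Gm23442 (chr17:35162563-35162696, minus, intron of Prrc2a) and Gm25117 (chr10:111481493-111481636, plus, intron of Nap1l1). Snora31 and Snora35 had opposite tissue patterns in RFP, and all 5 rose in SC footprints after SNI.
Snora31: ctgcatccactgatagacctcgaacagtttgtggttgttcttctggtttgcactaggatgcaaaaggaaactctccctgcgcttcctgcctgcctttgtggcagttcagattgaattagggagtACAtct
Snora35: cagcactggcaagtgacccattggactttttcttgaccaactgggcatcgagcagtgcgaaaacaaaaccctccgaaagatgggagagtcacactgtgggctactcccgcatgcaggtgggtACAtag
Snora30: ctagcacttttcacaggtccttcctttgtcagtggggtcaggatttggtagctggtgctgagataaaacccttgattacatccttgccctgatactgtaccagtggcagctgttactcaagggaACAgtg
Gm23442: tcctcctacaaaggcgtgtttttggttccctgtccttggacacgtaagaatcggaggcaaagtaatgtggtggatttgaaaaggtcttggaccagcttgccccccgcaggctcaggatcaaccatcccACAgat
Gm25117: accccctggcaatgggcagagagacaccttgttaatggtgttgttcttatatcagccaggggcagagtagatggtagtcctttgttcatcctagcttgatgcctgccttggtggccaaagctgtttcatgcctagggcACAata

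The libraries held 6898056 to 28553113 reads in genes, with 13154 to 59773 reads in members. The replicate libraries of a group were close: the chi-square of their counts over its degrees of freedom, which is 1 for sampling noise alone, was 1.05 to 2.76 over all genes. Over members it was 0.925 to 3.07. The highest value was in SC SNI RFP, where all genes gave 1.16, so members there spread more between the pools than genes in general. The fits share information on spread across all genes, so p-values of members in SC RFP may understate their own spread. All p-values rest on 2 pools per group. In the edgeR fits, the common coefficient of variation between pools beyond counting noise was 0.0099 in DRG mRNA. It was 0.017 in SC RFP and in SC mRNA. The edgeR p-values there measure mostly the sampling noise of counts and little variation between pools. Sensory neuron markers summed to 8409 to 8653 CPM in DRG RFP (counts per gene scaled to a library total of 1000000) and 85.2 to 124 in SC RFP, as the tissue labels say. Skeletal muscle markers went from 102 and 103 CPM in sham to 285 and 280 in SNI DRG RFP, and motor neuron markers from 168 and 173 to 102 and 100 in SC RFP. Their part in the results below was not tested. In these bulk tissues, fewer cells of a type and less RNA per cell cannot be told apart.

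In every lysate the members took a larger share of the footprint library than of the mRNA library. Members held 2643 and 2703 CPM in sham DRG RFP against 1133 and 1136 CPM in the mRNA libraries of the same lysates. In sham SC they held 3121 and 3119 CPM in RFP and 599 and 587 CPM in mRNA. The class makeup differed by fraction. In sham DRG RFP, box H/ACA members held 1834 ± 44.5 CPM (mean ± SD, n = 2) and box C/D members 677 ± 9.41, whereas in sham DRG mRNA box C/D members held 650 ± 3.16 and box H/ACA members 201 ± 4.16. In sham SC, RFP held 1606 ± 8.92 CPM of box C/D and 1273 ± 25.1 of box H/ACA, and mRNA held 428 ± 5.80 and 86.0 ± 0.828. The leading member also differed, with Snora31 first in the DRG RFP libraries, Snord104 in the SC RFP libraries, the scaRNA Gm22009 in DRG mRNA and Snord49a in SC mRNA.

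**Figure D1:**
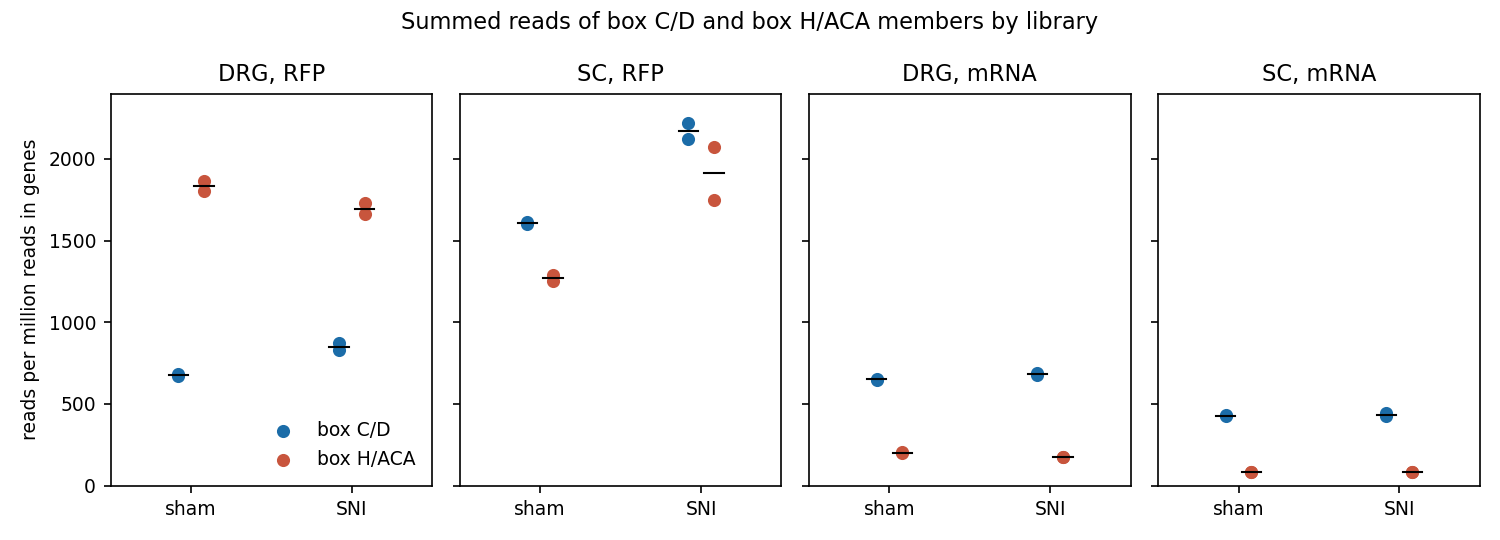
Summed reads of the 76 box C/D and 61 box H/ACA members, as CPM of reads in genes, by tissue and fraction. Points are libraries (2 per group) and bars are means. Box H/ACA members exceeded box C/D members in both DRG RFP groups and lay below them in both mRNA panels and, by their means, in SC RFP.

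The ratio of RFP to mRNA CPM separated the classes. The median log2 ratio of box H/ACA members was 2.32 ± 0.27 in DRG and 3.67 ± 0.20 in SC (mean ± SD over 4 lysates), and that of box C/D members was -1.21 ± 0.07 and 1.46 ± 0.24. Protein-coding genes with as many reads had medians of -0.23 ± 0.01 and -0.20 ± 0.01. Among other genes with as many reads, those typed snRNA had 0.30 ± 0.44 in DRG and 3.73 ± 0.30 in SC. Those typed miRNA had 3.77 ± 1.00 and 3.29 ± 1.02, and those typed misc_RNA -2.81 ± 0.11 and 1.73 ± 0.59. Genes typed lincRNA had -1.64 ± 0.04 and -1.49 ± 0.10. A high ratio in SC was thus not particular to the members. Of 61 box H/ACA members, 45 had more CPM in RFP in all 4 DRG lysates and 50 in all 4 SC lysates. Of 76 box C/D members, 47 had more CPM in mRNA in all 4 DRG lysates, but only 9 did in SC, where 54 had more in RFP. By name alone, the Snora median exceeded the Snord median by 2.21 ± 0.29 in DRG and by 3.68 ± 0.42 in SC. Over members with at least 32 reads per library on average in each fraction these were 2.503 (11 Snora, 24 Snord) and 2.36 (4 Snora, 20 Snord), so the larger SC value did not hold there. Both fractions entered the rule that chose the members, so no test is given.

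The highest median ratios over the 8 lysates belonged to Gm26493 (an intron of Cnot1, 6.94), Snora31 (6.903) and Snora23 (6.89). Snora23 held 111 to 140 CPM in the 8 RFP libraries and 0.766 to 2.20 CPM in the 8 mRNA libraries, with no overlap. The lowest were Gm25121 (-4.70), Gm26200 (-3.48) and Gm25314 (-3.32), which are copies of the Snhg14 array. These copies had few footprint reads: 0 to 2 per RFP library for Gm25121, 0 to 11 for Gm26200 and 0 to 5 for Gm25314. Their ratios therefore depend on the constant added to each count and on library depth. The size and order of these low values are not well measured. Gm22009, a scaRNA gene in an intron of Kpna4, held 7.68 to 8.30 CPM in DRG RFP and 123.1 to 131.5 CPM in DRG mRNA. Across members of a class, the Spearman correlation of length with the ratio was 0.10 in both tissues for box H/ACA (n = 61), and 0.15 in DRG and 0.32 in SC for box C/D (n = 76), with libraries shared by all points.

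**Figure D2:**
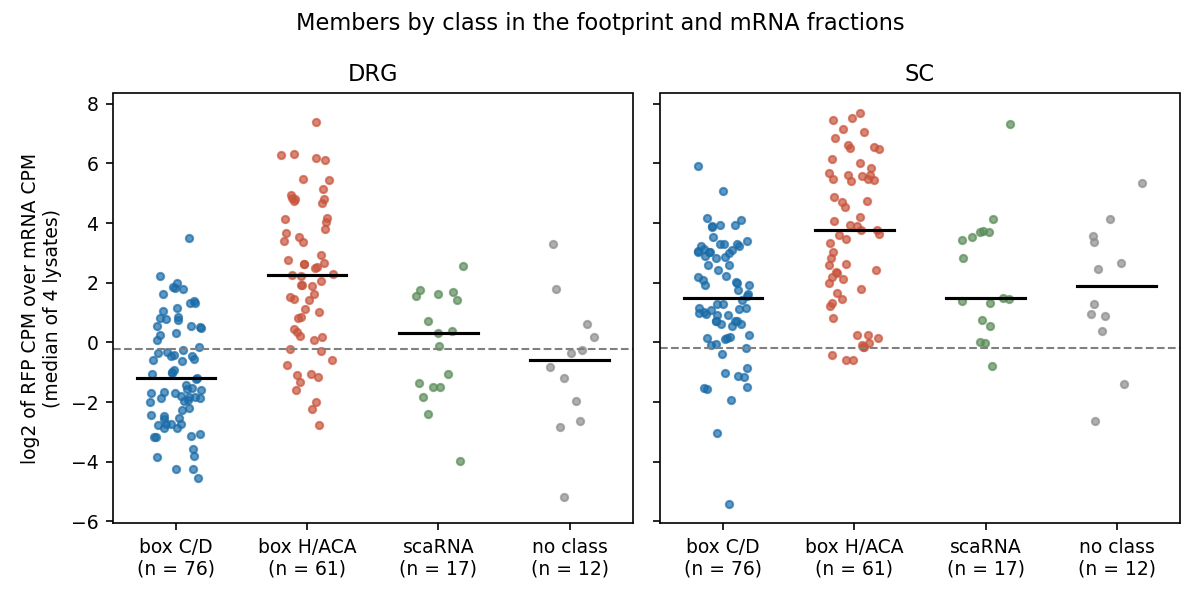
Log2 of RFP CPM over mRNA CPM of each of the 166 members (points; median of 4 lysates, with 0.5 reads added) by class in DRG and SC; black bars are class medians and the dashed line is the median of protein-coding genes. Box H/ACA members sit highest in both tissues, and box C/D members pass from below the line in DRG to above it in SC.

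The next comparison asked how members changed in SC footprints 30 days after nerve injury. Of the 39 box H/ACA members tested, 22 rose, with a median log2 fold change of 0.58. Of 45 box C/D members tested, 10 rose (median 0.26), and the difference between the classes was not tested. In all, 36 of the 97 members tested rose (37.1%) and 1 fell (1.03%), against 1.13% higher and 1.11% lower among all 12018 genes (edgeR quasi-likelihood test, adjusted p under 0.05). The other 69 members had too few reads. The median over members was 0.33 and that over all genes was -0.005. Their summed share rose in value from 3121 and 3119 CPM to 4599 and 4132 CPM, 1.40 times, with no overlap (exact permutation test, two-sided, p = 0.333, the smallest that 2 against 2 allows).

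Snora30 held 7.62 and 6.46 CPM in sham and 31.8 and 30.4 in SNI, a log2 fold change of 2.16 ± 0.13 (SE; edgeR adjusted p = 2.45e-11). Gm23442 held 48.9 and 35.4 CPM in sham and 182 and 132 in SNI (1.94 ± 0.12, edgeR adjusted p = 3.56e-11). In both, the SNI libraries lay far above the sham libraries. Gm25636, in an intron of the importin gene Ipo7, went from 5.13 and 4.30 to 11.8 and 12.03 CPM (1.35 ± 0.18). Gm26387, in an intron of the ribosomal protein gene Rpl5, went from 12.5 and 12.44 to 33.3 and 26.4 CPM (1.26 ± 0.12). Gm22748, in an intron of the ornithine decarboxylase gene Odc1, went from 13.0 and 10.1 to 26.2 and 23.2 CPM (1.13 ± 0.13). Gm23639 followed with 1.08 ± 0.16. Among members with most reads, Snora21, Gm25117, Gm26493 and Snora31 rose by 0.89, 0.86, 0.75 and 0.58, and Snora23 did not pass (-0.06 ± 0.05, edgeR adjusted p = 0.734).

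Of the box C/D members, Snord49b, the member with most reads, went from 221 and 215 CPM to 364 and 360 (0.73 ± 0.03), and Snord49a, from the same host 2410006H16Rik, from 126 and 121 to 200.1 and 200.1 (0.69 ± 0.04). Snord104 went from 399 and 381 to 598 and 561 CPM (0.57). Snord83b, with 139 and 142 CPM in sham and 154 and 146 in SNI, did not pass (0.09, edgeR adjusted p = 0.391). The only member that fell was Scarna17, a guide for spliceosomal RNA, from 5.96 and 7.48 to 2.36 and 4.35 CPM (-1.06 ± 0.25, edgeR adjusted p = 0.0214); without SNI replicate 1 it was -0.67 with adjusted p = 0.291, without sham replicate 2 no member was lower, and DESeq2 gave adjusted p = 0.888.

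Other small RNA types moved in the same libraries. Genes typed miRNA went from 3419 and 3201 CPM to 8179 and 8528 in SC RFP, with 14 of 17 higher, while genes typed snRNA went from 8199 and 8709 to 7829 and 7918, with 4 of 28 higher and 6 lower. Protein-coding genes tested were 75 higher and 117 lower of 11662. Whether these share an origin with the members was not tested. DESeq2 called 26 members higher and a fixed coefficient of variation of 0.1 called 27, while 9 passed a test against a 1.5-fold change.

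**Figure D3:**
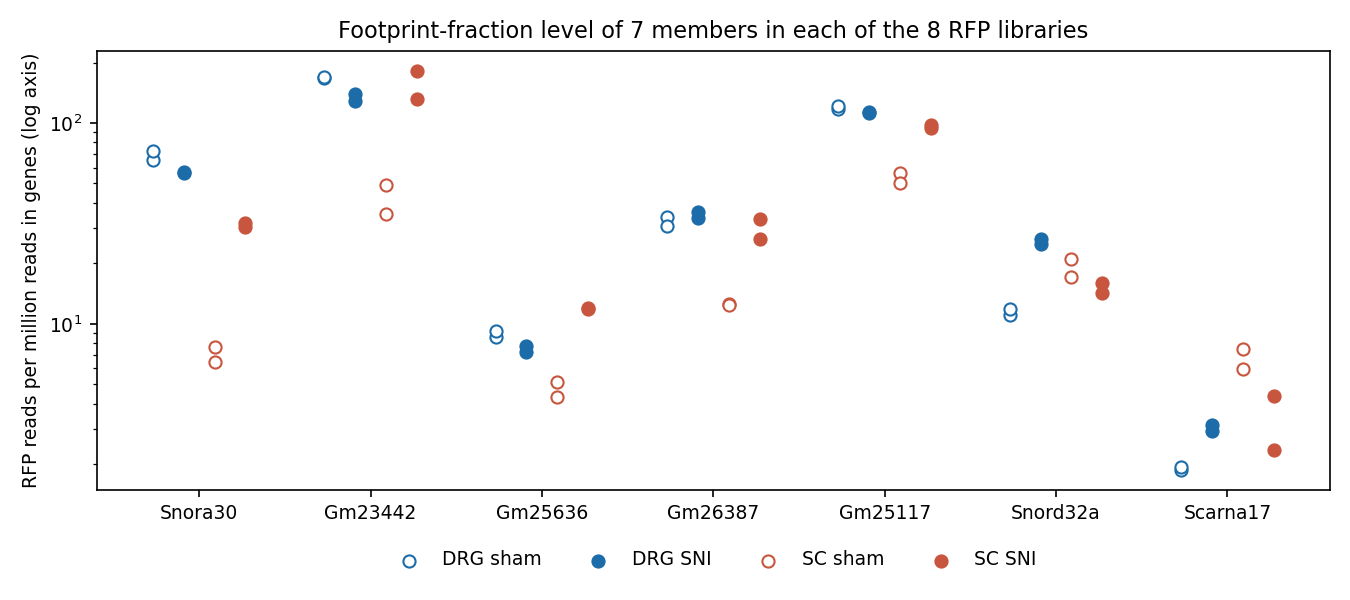
RFP level of 7 members in each of the 8 RFP libraries, as CPM of reads in genes on a log axis; open symbols are sham and filled symbols SNI, 2 libraries each. Snora30, Gm23442, Gm25636, Gm26387 and Gm25117 rise between the SC groups without overlap, Snord32a rises between the DRG groups, and Scarna17 falls between the SC groups and rises between the DRG groups.

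The mRNA fraction of SC held few changes. Of 68 members tested, 3 were higher and 2 lower, 4.41% and 2.94%, against 1.81% and 2.29% of all 14723 genes. Snord104 went from 22.5 and 23.7 to 28.0 and 31.2 CPM (0.35 ± 0.06, edgeR adjusted p = 0.000101) and Scarna2, an scaRNA gene without a host, from 24.4 and 22.2 to 27.8 and 28.4 (0.25 ± 0.06). Gm23245, in an intron of Cct6a, was the third (1.04 ± 0.27). The 2 that fell, Gm25156 (-0.24) and Gm26200 (-0.47), are Snhg14 copies. DESeq2 called 0 members in either direction, and at an unadjusted p under 0.05 edgeR gave 6 higher and 5 lower. The summed share was 599 and 587 CPM in sham and 591 and 618 in SNI.

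Taking both fractions of SC together, the RFP-to-mRNA ratio rose for 10 of 52 members, 19.2% against 0.169% higher and 0.0759% lower of all 11865 genes. At an unadjusted p under 0.05 edgeR gave 21 higher and 2 lower, and DESeq2 called 5 higher and 0 lower. Gm23442 led (2.14 ± 0.19), followed by Snora30 (1.502 ± 0.30), Gm23639 (1.21 ± 0.28), Snora21 (1.02 ± 0.20), Gm25117 (0.94 ± 0.09) and Gm25128 (0.93 ± 0.16). Without SC SNI replicate 1, 5 members were higher, and without SC SNI replicate 2, 1 was lower.

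In DRG footprints, box C/D and box H/ACA members went in different directions by count. Of 35 box C/D members tested, 11 rose and 1 fell (median log2 fold change 0.24), and of 44 box H/ACA members, 6 rose and 15 fell (median -0.23). Over all 94 members tested, 22 were higher (23.4%) and 20 lower (21.3%), against 8.24% and 7.52% of 13038 genes. The summed share was alike, 2643 and 2703 CPM in sham and 2654 and 2766 in SNI, with overlap (1.01 times). These counts depended on the spread assumed: DESeq2 called 6 higher and 7 lower, and a fixed coefficient of variation of 0.1 called 5 and 2. Leaving out sham replicate 2 gave 13 higher and 9 lower, and leaving out SNI replicate 2 gave 11 higher.

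Snord32a held 11.1 and 11.9 CPM in sham DRG RFP and 25.0 and 26.3 in SNI (1.13 ± 0.10, edgeR adjusted p = 3.75e-18), and 1 member, Snord32a, passed the test against a 1.5-fold change. Its mRNA-fraction level was 23.1 and 22.7 CPM in sham and 24.2 and 23.5 in SNI, which did not overlap and did not pass (0.04, edgeR adjusted p = 0.686). Gm25788 and Gm22154, both from introns of Pabpc4, went from 1.47 and 2.33 to 4.77 and 4.16 CPM and from 4.42 and 4.38 to 8.73 and 6.99 CPM. Scarna10 (1.004 ± 0.17), Scarna9 (0.84 ± 0.24) and Gm25970 (0.75 ± 0.19) completed the largest rises. Among members called without overlap between the groups, the largest falls were Gm23751, a scaRNA gene in an intron of Chd4, from 14.5 and 15.0 to 8.98 and 8.28 CPM (-0.81 ± 0.12), Gm24313 (-0.74 ± 0.23), Gm23297 in an intron of Nap1l4 from 52.8 and 50.2 to 32.0 and 33.4 CPM (-0.65 ± 0.06), Gm22270 (-0.53 ± 0.09), Gm23639 (-0.46 ± 0.12) and Gm26397 (-0.45 ± 0.12).

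In DRG mRNA, 7 of 91 members were higher and 13 lower, 7.69% and 14.3%, which is under the 17.1% and 14.9% of all 14494 genes. Of 29 box H/ACA members, 1 rose and 6 fell. Gm22748 rose most, from 4.22 and 3.91 to 7.18 and 8.89 CPM (0.94 ± 0.14), and Gm25291 fell most (-0.71 ± 0.19). Snord49a rose by 0.31 ± 0.03 and Snord49b, from the same host, fell by 0.14 ± 0.03. Without SNI replicate 2, 4 were higher, and without sham replicate 1, 6 were lower. DESeq2 called 3 higher and 3 lower, and a fixed coefficient of variation of 0.1 called 1 higher. The DRG ratio rose for 5 of 73 members and fell for 3, 6.85% and 4.11% against 3.29% and 3.55% of 12710 genes. Snord32a (1.09 ± 0.12), Snord17 (1.05 ± 0.20), Snord23 (0.63 ± 0.17), Snord49b (0.57 ± 0.04) and Scarna2 (0.49 ± 0.09) rose, and Gm22748 (-0.97 ± 0.18), Snord87 (-0.46 ± 0.10) and Gm23297 (-0.45 ± 0.11) fell. For the ratio, DESeq2 called 2 higher and the fixed coefficient of variation 1 higher, and neither called a lower member.

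The SNI response differed between tissues in the footprint fraction. In the test of the difference itself, 36 of 113 members responded higher in SC than in DRG and 5 lower, 31.9% and 4.42% against 2.5% and 4.92% of all 14194 genes. Box H/ACA members made up 27 of the 36 and 47 of the 113. Of 83 members tested in both tissues, 12 were called lower in DRG and higher in SC, 1 was called higher in DRG and lower in SC, and 7 were called higher in both. Such joint calls were not counted over all genes, so these 3 counts only describe the members. In the mRNA fraction 4 of 120 members responded higher in SC and 3 lower, 3.33% and 2.5%, under the 5.97% and 7.82% of all 16716 genes.

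**Figure D4:**
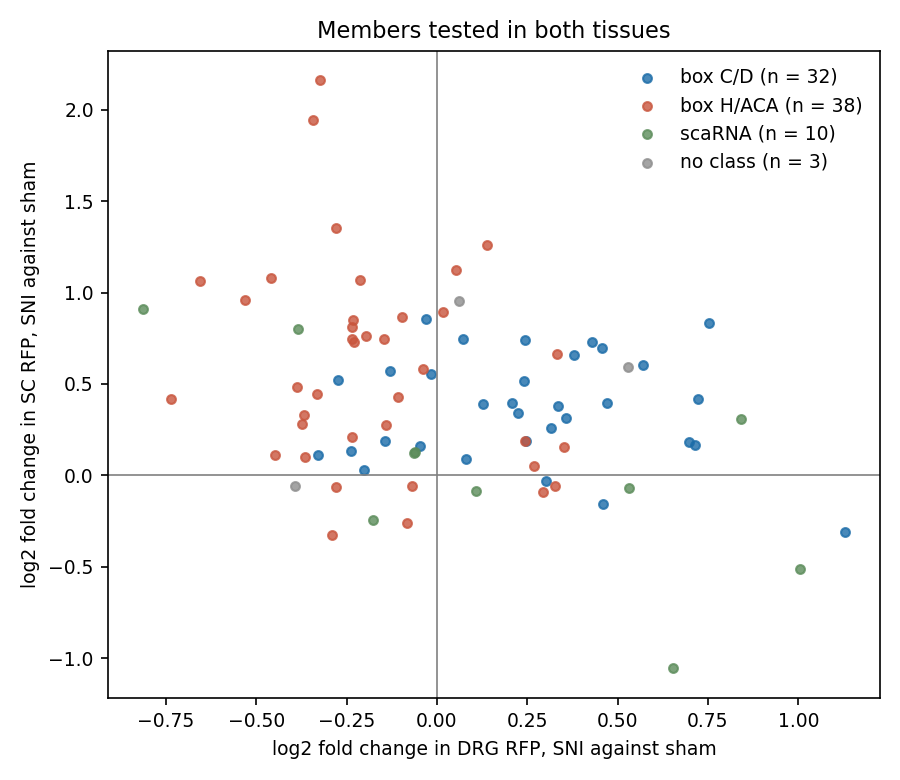
Log2 fold change of RFP reads, SNI against sham, in DRG (horizontal) and SC (vertical) for the 83 members tested in both tissues, by class. Of 38 box H/ACA members, 25 lie at lower DRG and higher SC values, and of 32 box C/D members, 20 lie above 0 in both.

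Between the sham tissues, the fractions ordered the members differently. In RFP, 27 of 91 members tested were higher in DRG and 48 higher in SC, 29.7% and 52.7%, against 42.5% and 36.0% of all 12729 genes. In mRNA, 68 of 85 were higher in DRG and 11 in SC, 80.0% and 12.9%, against 38.2% and 43.9% of 14706 genes. Of 62 members tested in both, 26 were called lower in DRG RFP and higher in DRG mRNA, and 1 the other way. In both fractions, 13 were higher in DRG and 4 lower. Such joint calls were not counted over all genes. A member could pass the minimum of reads through the tissue where it is high, so these counts describe the members and support no more. The pattern was not particular to members. Of genes typed snRNA, 4 of 29 were higher in DRG RFP and 22 lower, and 25 of 25 were higher in DRG mRNA. Of genes typed misc_RNA, 4 of 4 were lower in DRG RFP, and in DRG mRNA 4 of 5 were higher and 1 lower. Genes typed miRNA went the other way in RFP, with 22 of 27 higher in DRG and 5 lower.

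Snora31 held 345 and 356 CPM in sham DRG RFP and 56.1 and 58.9 in SC RFP (2.73 ± 0.04), and Snora30 held 65.5 and 72.9 against 7.62 and 6.46 (3.48 ± 0.11). Gm22027, Gm23297, Gm23442 and Snora62 followed with 3.18, 2.80, 2.17 and 2.09. Snora35 had the largest fold in favour of SC RFP among the members tested, with 0.402 and 1.25 CPM in DRG RFP and 88.2 and 85.6 in SC RFP (-6.29 ± 0.14). Its host Htr2c held 1.07 and 0.796 CPM in DRG RFP and 134 and 131 in SC RFP. In SC SNI RFP Snora35 reached 168 and 141 CPM (0.84, edgeR adjusted p = 1.81e-09), while Htr2c stood at 130 and 135 (-0.01 ± 0.04, edgeR adjusted p = 0.969).

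Snord104 held 41.2 and 38.9 CPM in sham DRG RFP and 399 and 381 in SC RFP (-3.16 ± 0.04), but 39.1 and 40.4 CPM in sham DRG mRNA and 22.5 and 23.7 in SC mRNA (0.81). Snora20 showed the largest mRNA-fraction difference among the members tested, 12.4 and 11.99 CPM in DRG and 0.257 and 0.134 in SC (5.91 ± 0.23), with 39.1 and 35.2 against 25.9 and 29.5 CPM in RFP. Gm23751, Gm22488, Snora41, Snord13 and Gm25129 were also higher in DRG mRNA, by 4.70, 4.37, 3.49, 2.85 and 2.75 on the log2 scale.

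**Figure D5:**
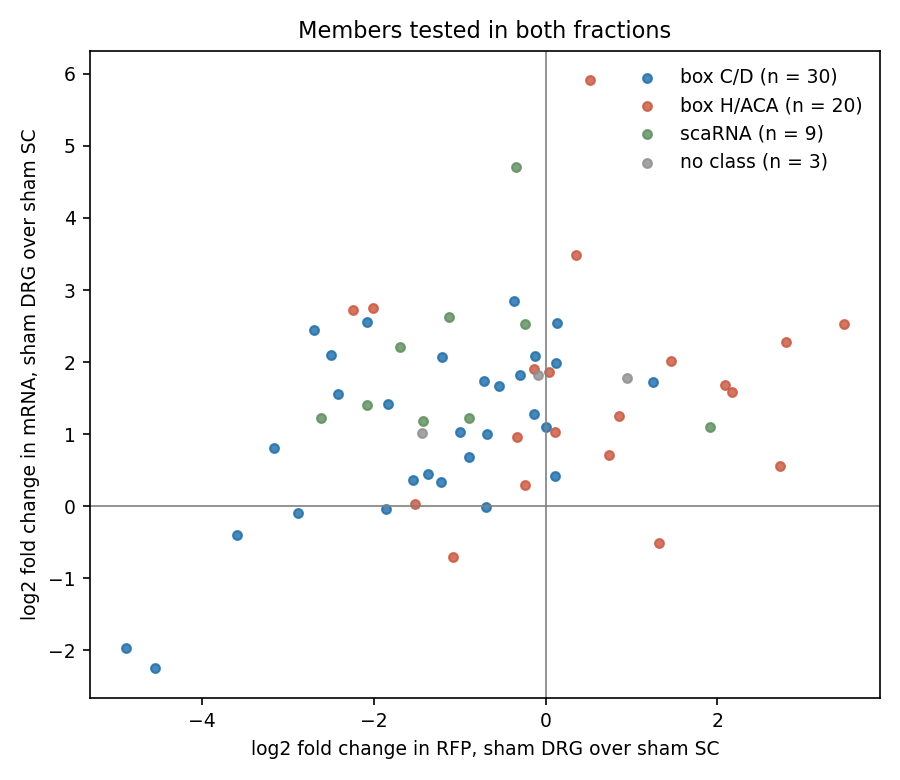
Log2 fold change of sham DRG over sham SC in RFP (horizontal) and mRNA (vertical) for the 62 members tested in both fractions, by class. Of these members, 35 lie at lower RFP and higher mRNA values and 19 above 0 in both.

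The Snhg14 locus on chromosome 7, an imprinted region that holds the Snord115 and Snord116 arrays, hosted 27 members. Of these, 18 are 79 bases long, of 130 such genes, and 9 are 92 to 94 bases long, of 70. Identity between copies of the same length was 81.0% to 97.5% among the 79-base members, and 824 pairs among all 130 copies were identical, so reads of 1 copy may be counted under another or discarded. The 79-base members summed to 3.35 and 3.70 CPM in sham DRG RFP and 108 and 126 in SC RFP, and to 14.1 and 15.0 CPM in DRG mRNA and 60.9 and 64.2 in SC mRNA. All 3 that were tested in RFP and all 8 in mRNA were lower in DRG. Copies could pass the minimum of reads through SC alone, where they are high, so these counts describe the copies and support no more. Gm25156 held 0.803 and 1.76 CPM in DRG RFP and 44.8 and 50.6 in SC RFP (-4.89 ± 0.15). The host transcript Snhg14 held 107.7 and 105.5 CPM in DRG mRNA and 118.5 and 114.3 in SC mRNA (-0.10 ± 0.05, edgeR adjusted p = 0.0754). In RFP, Snhg14 was lower in DRG like its copies, with 3.88 and 3.41 CPM in sham DRG and 12.5 and 13.6 in sham SC (-1.75 ± 0.17). In SC RFP after SNI, the log2 fold changes of the 5 tested copies of 79 bases ran from -0.11 to 0.24 and those of the 3 copies of 92 to 94 bases from 0.22 to 0.24.

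Hosts were set beside their members. Over the 60 hosts tested with their best-read member in SC RFP, 23 members rose and 1 host was called, not the host of any of these 23 (median host log2 fold change -0.01, median member 0.32). Of all 12018 genes, 1.13% were higher and 1.11% lower there, so few called hosts are not particular to hosts. Prrc2a, host of Gm23442, held 206 and 208 CPM in sham and 196 and 195 in SNI SC RFP. In the mRNA-fraction tissue comparison, of 50 members higher in DRG, 19 had hosts higher in DRG and 21 had hosts lower. Of all 14706 genes, 38.2% were higher and 43.9% lower in DRG there. The host counts are near these shares, so nothing particular to hosts is read from them. Across genes the Spearman correlation of member and host log2 fold changes was 0.13 in SC RFP (60 pairs) and 0.12 in the mRNA tissue comparison (60 pairs). It was 0.14 in DRG RFP (65 pairs), 0.04 in DRG mRNA (70 pairs) and -0.03 in SC mRNA (45 pairs). The RFP tissue comparison gave the highest value, 0.20 (62 pairs), with a Pearson correlation of 0.49. Libraries were shared by all points.

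Genes of the small nucleolar ribonucleoproteins, which assemble with these RNAs, were read in the same fits. Over the 20 genes tested in SC RFP after SNI (4 of box C/D, 4 of box H/ACA and 12 of assembly and trafficking), log2 fold changes ran from -0.22 to 0.26 with a lowest edgeR adjusted p of 0.406. The lowest was 0.0605 over 19 genes in DRG RFP and 0.203 over 21 genes in SC mRNA. In DRG mRNA, Dkc1, the pseudouridine synthase, fell by 0.32 ± 0.07 (edgeR adjusted p = 0.0004), Nop58 by 0.15 ± 0.05, Nolc1 by 0.14 ± 0.04 and Naf1 by 0.22 ± 0.08, and Coil, the coilin gene of Cajal bodies, rose by 0.37 ± 0.07. These were 1 of 5 box C/D genes, 1 of 4 box H/ACA genes and, of 12 assembly and trafficking genes, 2 lower and 1 higher. Of all 14494 genes, 17.1% were higher and 14.9% lower there, so no response particular to the ribonucleoprotein genes is read from these calls.

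The members nearest the minimum were Snora36b (101 reads), Gm25944 (103) and Gm24837 (104), and the genes nearest below it were Snora73a (93), Gm26466 (87) and Gm23145 (82). Snora73b, which shares the host Rcc1 with Snora73a and acts in ribosomal RNA processing, had 35.5 and 37.2 CPM in sham SC RFP and 8.03 and 6.54 in sham DRG RFP.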

How the data were processed

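The data comprised 16 libraries, RFP and poly(A)+ mRNA of DRG and SC from sham and SNI mice, in 8 groups of 2. Per the labels and the study's methods, the authors used Bowtie 1.1.2 against rRNA and tRNA, STAR 2.5.2b against GRCm38.p5 and HTSeq for the deposited raw counts per gene. The deposited RPKM values and the deposited TE values, a ratio of footprint RPKM over mRNA RPKM, were made by the authors and not used here. The study's methods describe single reads without strand information, while annotation release and the strand setting of HTSeq are not given in the sources used here. Both can move reads between a small RNA, its host and its copies.

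Groups came from the sample titles. CPM are counts scaled to 1000000 reads in genes. Counts of all genes with a mean of 32 reads per library (16 where both tissues were fitted for the response difference) were tested with edgeR 4.0.16 (R 4.3.3; TMM within each fraction, quasi-likelihood, Benjamini-Hochberg over all genes), SNI against sham within tissue, sham DRG against sham SC, and the differences of response as interactions. For the ratio, the model had a term for each lysate, and the test was of surgery by fraction. Errors of log2 fold changes are the fold change over the square root of F. Log2 ratios per lysate had 0.5 reads added. Alternatives were DESeq2 1.42.0, other normalizations, no filter, a fixed coefficient of variation of 0.1, replicate number as a block, each replicate left out and, chosen after seeing the data, a test against a 1.5-fold change. Named members were those with most reads, those called without overlap with the largest changes per comparison, the best-read member per family, and those at the minimum of reads or at the ends of the ratio; host and ribonucleoprotein genes were added. The members and lists were chosen with earlier results of these data known. Depth limits members of few reads. The p-values rest on 2 pools per group, whose counts over all genes differed little beyond sampling noise in DRG mRNA and SC RFP.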

Additional observations from a re-analysis of the deposited data

Results flagged for a closer look

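The tests of the difference between the responses of the tissues marked the following members. In the footprint fraction, 36 members responded higher in SC than in DRG and 5 lower (edgeR, adjusted p under 0.05). Among those named, Snora30 responded higher in SC by 2.46 on the log2 scale, Gm23442 by 2.24, Snora35 by 2.07, Gm23751 by 1.69, Gm23297 by 1.68 and Gm25636 by 1.60. Scarna17 responded lower in SC with a difference of -1.75, Scarna10 with -1.56, Snord32a with -1.47, Scarna2 with -0.63 and Snord17 with -0.58. The Snora35 value rests on few DRG reads: without DRG sham replicate 2 it was 0.77 with edgeR adjusted p = 0.798. DESeq2 gave adjusted p = 0.0683 for Scarna17 and 0.382 for Snord17.

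In the mRNA fraction, 4 members responded higher in SC and 3 lower. The higher ones were Gm23245 (1.35), Gm25291 (1.16), Snora30 (0.94) and Snord104 (0.61), and the lower ones were Gm22748 (-0.79), Snord82 (-0.54) and Snord49a (-0.24). DESeq2 called 2 and 0 of the members in this comparison.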

How the results depend on the processing

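With DESeq2, the counts of members called were 6 higher and 7 lower in DRG RFP, 0 lower in SC RFP, 3 and 3 in DRG mRNA, 0 and 0 in SC mRNA, 2 and 0 for the DRG ratio, 5 higher for the SC ratio, and 3 lower, and 2 and 0, for the tissue difference of response in RFP and mRNA. A fixed coefficient of variation of 0.1 gave, in the same order, 5 and 2 in DRG RFP, 1 and 0 in DRG mRNA, 0 and 0 in SC mRNA, 1 and 0 for the DRG ratio, 3 higher for the SC ratio, 20 and 3 for the response difference in RFP and 1 and 0 in mRNA. The test against a 1.5-fold change left 1 and 0 in DRG RFP, 9 and 0 in SC RFP, 0 and 0 in both mRNA comparisons, 1 and 0 for the DRG ratio, 2 higher for the SC ratio, 14 and 3 for the response difference in RFP and 0 and 0 in mRNA. With library sizes alone 1 member was lower in SC mRNA. With no filter more members entered, and 82 were lower in DRG RFP than SC RFP, and the mRNA fraction gave 107 higher and 25 lower in DRG. Apart from the wider spread of the fixed value and the genes added, the cause was not tested.

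Leaving out 1 replicate or lysate gave 11 to 19 members higher and 9 to 22 lower in DRG RFP, 29 to 39 and 0 to 1 in SC RFP, 4 to 7 and 6 to 13 in DRG mRNA, 0 to 3 and 1 to 2 in SC mRNA, 4 to 5 and 1 to 3 for the DRG ratio, 5 to 11 and 0 to 1 for the SC ratio. Between the sham tissues it gave 23 to 26 and 37 to 50 in RFP and 54 to 64 and 5 to 10 in mRNA, and for the response difference 28 to 38 and 4 to 6 in RFP and 3 to 6 and 0 to 4 in mRNA. Beside the libraries named with the results above, counts moved by over 1.5 times as follows: in SC mRNA 1 higher without sham replicate 2, 0 higher without SNI replicate 2 and 1 lower without sham 2, SNI 1 or SNI 2, 1 lower for the DRG ratio without sham 1, in the mRNA tissue comparison 5 lower without SC sham 1 and 6 without SC sham 2, and for the response difference in mRNA 1 lower without DRG sham 2, DRG SNI 2 or SC sham 1 and 0 without SC SNI 1. The member share changed 0.993 to 1.03 times in DRG RFP, 1.01 to 1.02 in DRG mRNA, 1.32 to 1.47 in SC RFP and 0.996 to 1.04 in SC mRNA. The Snora minus Snord median was 2.09 to 2.29 in DRG and 3.51 to 3.85 in SC, and with at least 32 reads per library on average in each fraction 2.503 and 2.36. Scaling by protein-coding reads leaves that difference as it is by construction.

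Deviations of same-numbered libraries correlated at -0.03 in SC RFP, 0.05 in DRG mRNA and 0.0002 in SC mRNA. Much of the deviation in these groups was sampling noise, with a chi-square over its degrees of freedom of 1.05 to 1.59 over all genes. Low correlations can therefore not exclude a pairing by replicate number. In DRG RFP the correlation was 0.19, so a weak pairing is possible there. With the replicate number as a block, 23 and 22 members were called in DRG RFP and 36 and 1 in SC RFP, and no count moved by over 1.5 times. For the 92 results of named members, each 1 member in 1 comparison, log2 fold changes kept their sign under every alternative run, and 54 remained called with DESeq2. These results were chosen as called, with the largest changes in the same data, so the kept sign is no independent support.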
